A study of Atriplex lentiformis with 8 samples.

Results

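Pre-mRNA splicing factors were followed in leaves of Atriplex lentiformis (quailbush), a salt-tolerant C4 shrub, grown at 23 °C or 43 °C. The members are the assembled transcripts whose best match in the Arabidopsis proteome carries splicing, spliceosome, snRNP, small nuclear ribonucleoprotein or arginine/serine in its description. The rule found 196 transcripts that match 60 Arabidopsis genes, out of 46492 transcripts in all, of which 30203 had a match to 12468 genes. The word splicing alone selected 139 of them, and serine/arginine, in that order of words, selected 0.

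The 8 libraries came from leaf total RNA of plants with no stated genetic change. Of these, 4 are from a chamber with days at 23 °C and nights at 18 °C, and 4 from a chamber with days at 43 °C and nights at 30 °C. Both chambers had a photoperiod of 16 hours, and the labels give 8 weeks for all samples. The labels add a 16:3 lipid phenotype for the cooler group and an 18:3 lipid phenotype for the warmer group. Each group had its own chamber, so chamber and temperature cannot be told apart.

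Introns are removed from nuclear transcripts by the spliceosome, which is assembled from small nuclear ribonucleoprotein particles (snRNPs). The U1 particle pairs with the 5′ splice site, the U2 particle and its auxiliary factor U2AF act at the branch point and the 3′ splice site, and the U4/U6.U5 tri-snRNP brings in the catalytic core. Rings of Sm proteins coat the snRNAs of most of these particles, and LSm rings serve U6 snRNA and, in the cytoplasm, mRNA decay. SR proteins, which carry an RNA recognition motif and a tail rich in arginine and serine, help to choose splice sites. In Arabidopsis, many SR genes are themselves alternatively spliced, and heat is known to change which of their forms are made.

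The values are the authors' mean FPKM, which scales fragments by transcript length and library size, at each temperature. Single libraries were not analysed here, so no value has an SD, and sequencing depth is unknown. Transcripts rose or fell here where the adjusted p given by the authors' deposited table lay under 0.05 (43 °C against 23 °C), and the standard errors given are approximations from those p-values. Genes are called by the name of their best Arabidopsis match, which does not establish that they are orthologs. Transcripts that the assembler placed in the same component are called its forms here. They can be splice forms, alleles or close copies of a gene, and fragments shared among them can be divided unevenly.

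Splicing factor transcripts rose and fell in nearly equal numbers. Of the 196 transcripts, 38 (19.4%) were higher at 43 °C, against 20.7% of all transcripts, and 37 (18.9%) were lower, against 17.8% of all. The other 121 did not pass, so 38.3% were called in either direction beside 38.5% of the whole table. The median log2 change of the members was -0.02, beside 0.10 over all transcripts. By the most abundant transcript of each gene, 16 genes were higher, 16 were lower and 28 did not pass, which is 26.7% in each direction beside 26.9% of all matched genes higher and 30.9% lower, or 57.7% in either direction. In bulk leaf RNA, fewer cells of a type and less RNA per cell cannot be told apart.

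These directions depend on how the groups are scaled. Weighted by transcript length, the deposited FPKM had totals of 1084419 at 23 °C and of 909555 at 43 °C. Setting these totals equal adds 0.25 to every log2 change. On that scale 55 members were higher, against 27.9% of all transcripts, and 27 were lower, against 12.9% of all. Centring on the median of all transcripts, a shift of -0.10, left 35 higher and 43 lower, against 18.3% and 20.2% of all transcripts. Where a rise or fall described below lost its call on either scale, this is given with it. Of 94 transcripts selected by the naming rule, 12 that did not pass as deposited passed with equal totals and 4 on median centring, and most of these are not marked singly.

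Most member genes changed little in total. Summed over all transcripts of a gene, 31 of the 60 genes were higher at 43 °C and 29 lower, and 44 lay within 1.5-fold. The median log2 change of these sums was 0.016, beside 0.010 over all matched genes. How many of all matched genes lay within 1.5-fold or beyond 2-fold was not counted, so small changes in total are not shown to be particular to the members. Sums at least 2-fold higher were found for SCL30a and SmGa, and a sum at least 2-fold lower for AT4G36980. Member levels were moderate, with a median of 5.202 FPKM over both temperatures beside 1.61 for all transcripts, and a range from 0.14 to 149.9 FPKM. No member was listed at 0, and 25 were below 1 FPKM at both temperatures.

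**Figure D1:**
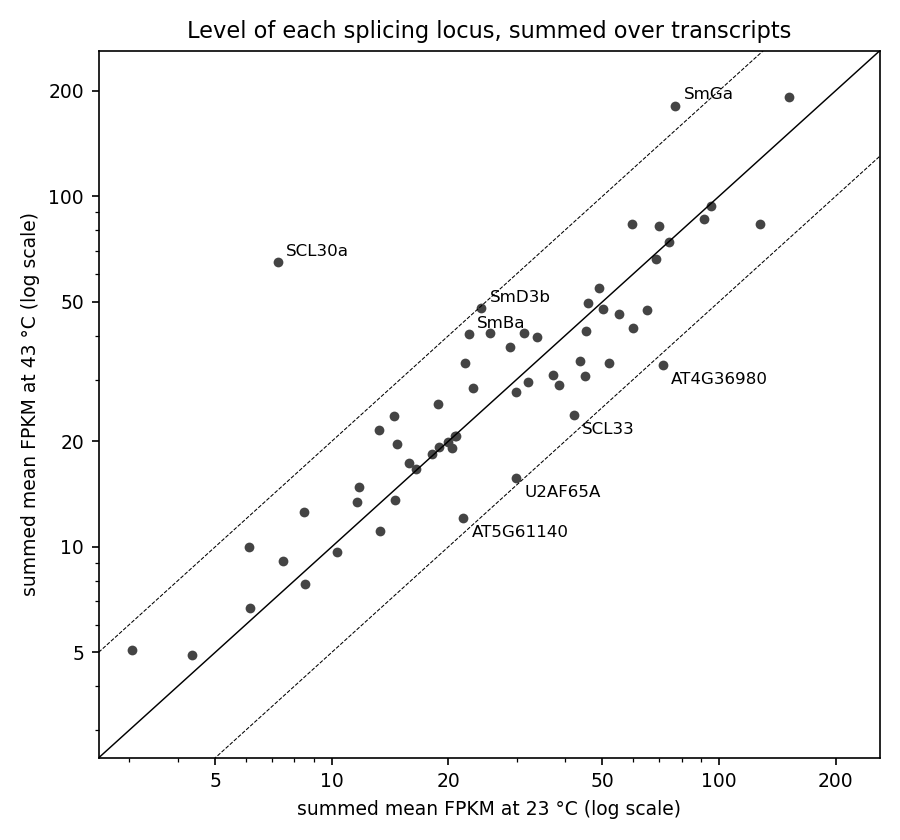
Summed mean FPKM of each of the 60 splicing genes at 23 °C (x axis) and 43 °C (y axis), both on log scales, with a point for each gene. The solid line marks equal sums and the dashed lines a 2-fold difference, and SCL30a, with sums of 7.25 and 64.7 FPKM, stands farthest above them.

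The leaves themselves differed between the groups. All 4 leaf markers were present and lower at 43 °C by their most abundant transcript, beside 30.9% of all matched genes. RBCS1A and LHCA1 lost the call with equal totals, and another transcript of RCA was called higher. LHCB1.3, a light-harvesting protein, was at 5298 and 824 FPKM in its most abundant transcript, and its gene sum was 16749 FPKM (23 °C) and 7014 FPKM (43 °C). Markers of dividing cells matched for 5 of 8 genes and their sum was 18.2 FPKM (23 °C) and 37.4 FPKM (43 °C). By the most abundant transcript 4 of the 5 genes were higher (MCM2 not on median centring), beside 26.9% of all matched genes, and none was lower. PCNA1, the sliding clamp of DNA replication, was at 0.82 and 3.60 FPKM and the S-phase and mitotic cyclin CYCA1;1 at 1.71 and 7.25 FPKM, while CYCB1;1, CDKB1;1 and CDKB2;1 had no match. The part of these shifts in the splicing factor values was not tested.

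Among called members with at least 1 FPKM at both temperatures, the largest change was in an SR protein gene. SCL30a, a plant-specific SC35-like SR protein, had a single matched transcript (comp45434_c0_seq2, 1087 bases, E value 3.7e-47) with a mean of 7.25 FPKM (23 °C) and 64.7 FPKM (43 °C). The warmer group was 8.94-fold higher by the means. Its log2 change in the authors' deposited table was 3.15, with an approximate standard error of 0.15 and an adjusted p of 5.42e-101, and it was called on every scale tried.

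The same component held 3 longer forms whose best match was SCL33, the closest relative of SCL30a in Arabidopsis, with weaker E values. The form of 1233 bases was at 5.52 and 3.16 FPKM, which did not pass (adjusted p = 0.066 from the authors' deposited table). The form of 1699 bases was at 3.67 and 2.74 FPKM and did not pass either. The form of 1559 bases fell from 4.35 to 1.79 FPKM (log2 -1.30, adjusted p = 0.0071 from the authors' deposited table). The short form thus made up 34.9% of the component's summed FPKM at 23 °C and 89.4% at 43 °C. That sum was 20.8 FPKM (23 °C) and 72.4 FPKM (43 °C). Of the 36 splicing components with at least 2 matched forms, this one had the largest movement between forms, 54.5% of its summed FPKM. The difference between forms was not itself tested, since it needs single libraries.

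Most other changes among SR protein members were falls. Over the 6 SR genes of the rule, 3 of 51 transcripts rose and 12 fell (29.4% in either direction, beside 38.5% of all). Their median log2 change was -0.47, and with equal totals the counts were 4 and 9 and the median -0.22. By the most abundant transcript, SCL30a rose, SCL33, SCL30, RS2Z33 and RS40 fell, and SC35 did not pass. The falls of SCL30 and RS2Z33 were not called with equal totals.

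SCL33, which acts in splice site choice together with SCL30a in Arabidopsis, had 8 matched transcripts, of which none rose and 3 fell. Its most abundant transcript fell from 18.1 to 8.65 FPKM, with a log2 change of -1.07 and an adjusted p of 1.18e-10 in the authors' deposited table. A second, Contig1285 of 2187 bases, fell from 6.25 to 2.21 FPKM. The sum over its transcripts was 42.2 FPKM (23 °C) and 23.7 FPKM (43 °C). This sum includes the 3 longer forms of the component that holds SCL30a. By best match, SCL33 was thus lower and SCL30a higher at 43 °C, but these sums are not of separate components.

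RS40, a plant SR protein of the RS subfamily, had 13 transcripts in 2 components, of which none rose and 4 fell. Within the first component the form of 1982 bases fell from 21.3 to 12.3 FPKM (log2 -0.79, adjusted p = 5.62e-09 from the authors' deposited table), while the form of 2015 bases was at 10.1 and 11.7 FPKM and did not pass. In the second component the shortest form, of 1087 bases, fell from 10.96 to 5.55 FPKM. The sum over the gene was 60.1 FPKM (23 °C) and 42.1 FPKM (43 °C).

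SCL30 and RS2Z33, the latter a plant-specific SR protein with zinc knuckles, also fell. SCL30 was at 30.4 and 21.6 FPKM in its most abundant form (log2 -0.50, adjusted p = 2.18e-05 from the authors' deposited table), and its longest form, of 2693 bases, fell from 4.90 to 1.62 FPKM. RS2Z33 was at 40.3 and 31.5 FPKM in its most abundant form (log2 -0.36, adjusted p = 0.032 from the authors' deposited table). A second RS2Z33 transcript, Contig711, fell from 13.2 to 6.73 FPKM. The gene sums were 45.0 and 30.7 FPKM for SCL30 and 65.2 and 47.4 FPKM for RS2Z33.

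SC35, the counterpart of a human SR protein of the same name, was spread over 20 transcripts and its sums were nearly equal, at 74.4 and 73.9 FPKM. One component, comp44321_c0, moved 30.9% of its summed FPKM between its 6 forms with none of them called. Its longest form, of 2889 bases, was at 10.7 and 24.8 FPKM, yet did not pass (log2 1.19, approximate standard error 0.81, adjusted p = 0.25 from the authors' deposited table), and its form of 2195 bases was at 12.7 and 5.85 FPKM and did not pass. In another component a form of 2391 bases rose from 2.44 to 8.23 FPKM (log2 1.74, adjusted p = 2.95e-12 from the authors' deposited table), and its share of the component was 25.2% at 23 °C and 55.3% at 43 °C. Contig10829 rose from 0.0025 to 0.55 FPKM, a very low level, and Contig10821 fell from 2.35 to 0.97 FPKM, a call lost with equal totals.

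SR45, an SR-like protein with arginine and serine rich tails at both ends, did not pass in either form, although both were called lower on median centring. The main form was at 31.0 and 26.5 FPKM (adjusted p = 0.097 from the authors' deposited table) and the other at 6.27 and 4.47 FPKM.

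**Figure D2:**
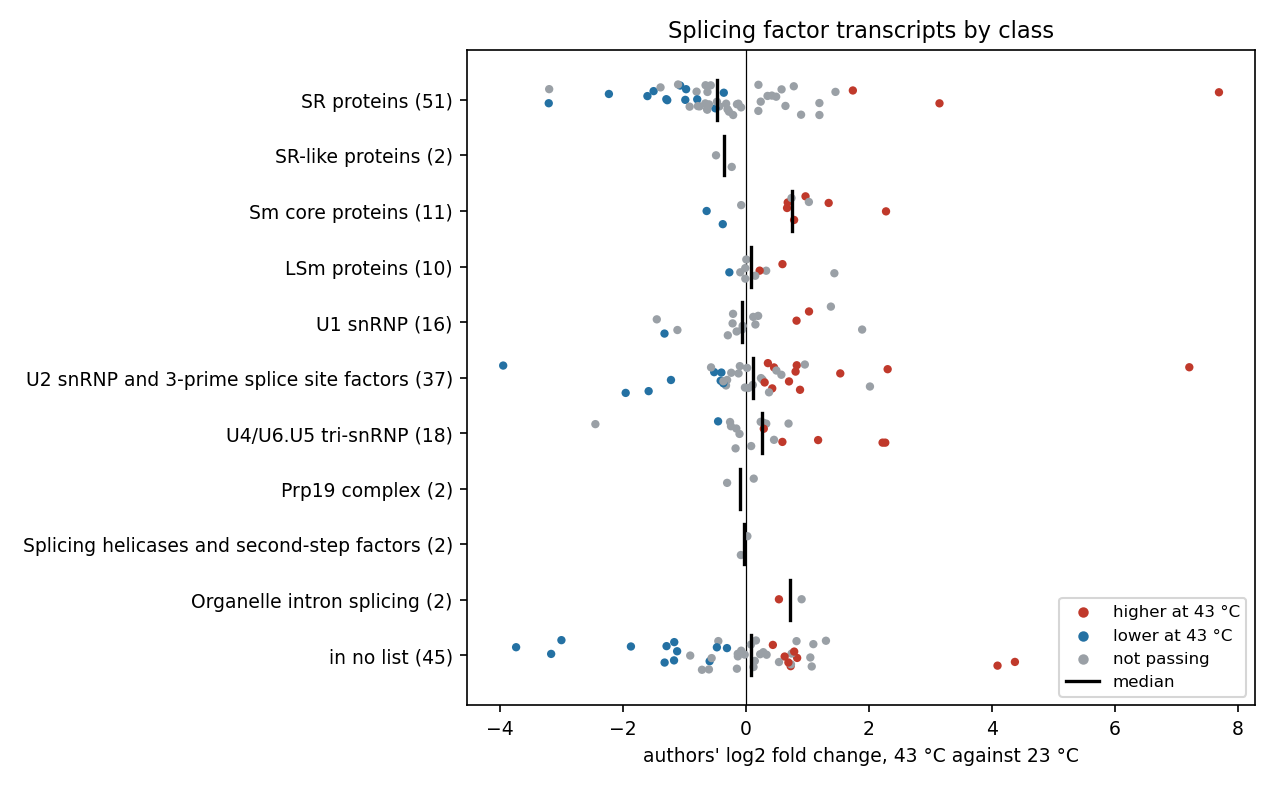
Log2 fold change of 43 °C against 23 °C in the authors' table (x axis) for each of the 196 member transcripts, grouped by class with the number of transcripts in brackets; black bars are class medians and colour shows the call. SR protein transcripts lie mostly left of 0, with a median of -0.47, and Sm transcripts mostly right of it, with a median of 0.74.

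Some SR genes are described in Arabidopsis by other words and fall outside the rule. Of 18 SR genes on the list, 12 had a match, 6 of them outside the members, and SR34b, RSZ22, SCL28, RS31a, RS41 and RS2Z32 had none. Of the 23 transcripts of those 6 genes, 9 were higher and 9 lower (78.3% in either direction, beside 38.5% of all), and with equal totals 10 were higher and 6 lower. RS31 rose in its main transcript from 6.003 to 12.7 FPKM. SR34a rose from 35.2 to 43.8 FPKM, while SR34, a relative of the human factor ASF/SF2, fell from 38.9 to 19.1 FPKM. RSZ21 (27.5 and 27.7 FPKM) and RSZ22a (42.0 and 45.9 FPKM) did not pass. SR45a, an SR-like gene induced by heat in Arabidopsis, rose in its main transcript from 30.2 to 35.5 FPKM and in the shorter form of 1398 bases from 19.2 to 43.2 FPKM. The calls of the main transcripts of SR34a and SR45a were lost on median centring.

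SR30, a second relative of ASF/SF2, showed opposite calls among its forms. The shortest form, of 1364 bases, rose from 14.8 to 33.2 FPKM, with a log2 change of 1.16 and an adjusted p of 1.9e-14 in the authors' deposited table. All 4 longer forms fell, among them the form of 1970 bases from 7.78 to 0.92 FPKM and the form of 2381 bases from 7.52 to 2.89 FPKM. The fall of the form of 1709 bases, from 7.05 to 4.55 FPKM, was not called with equal totals. The gene sum was 44.7 FPKM (23 °C) and 43.4 FPKM (43 °C), so the forms moved apart with little change in the total.

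**Figure D3:**
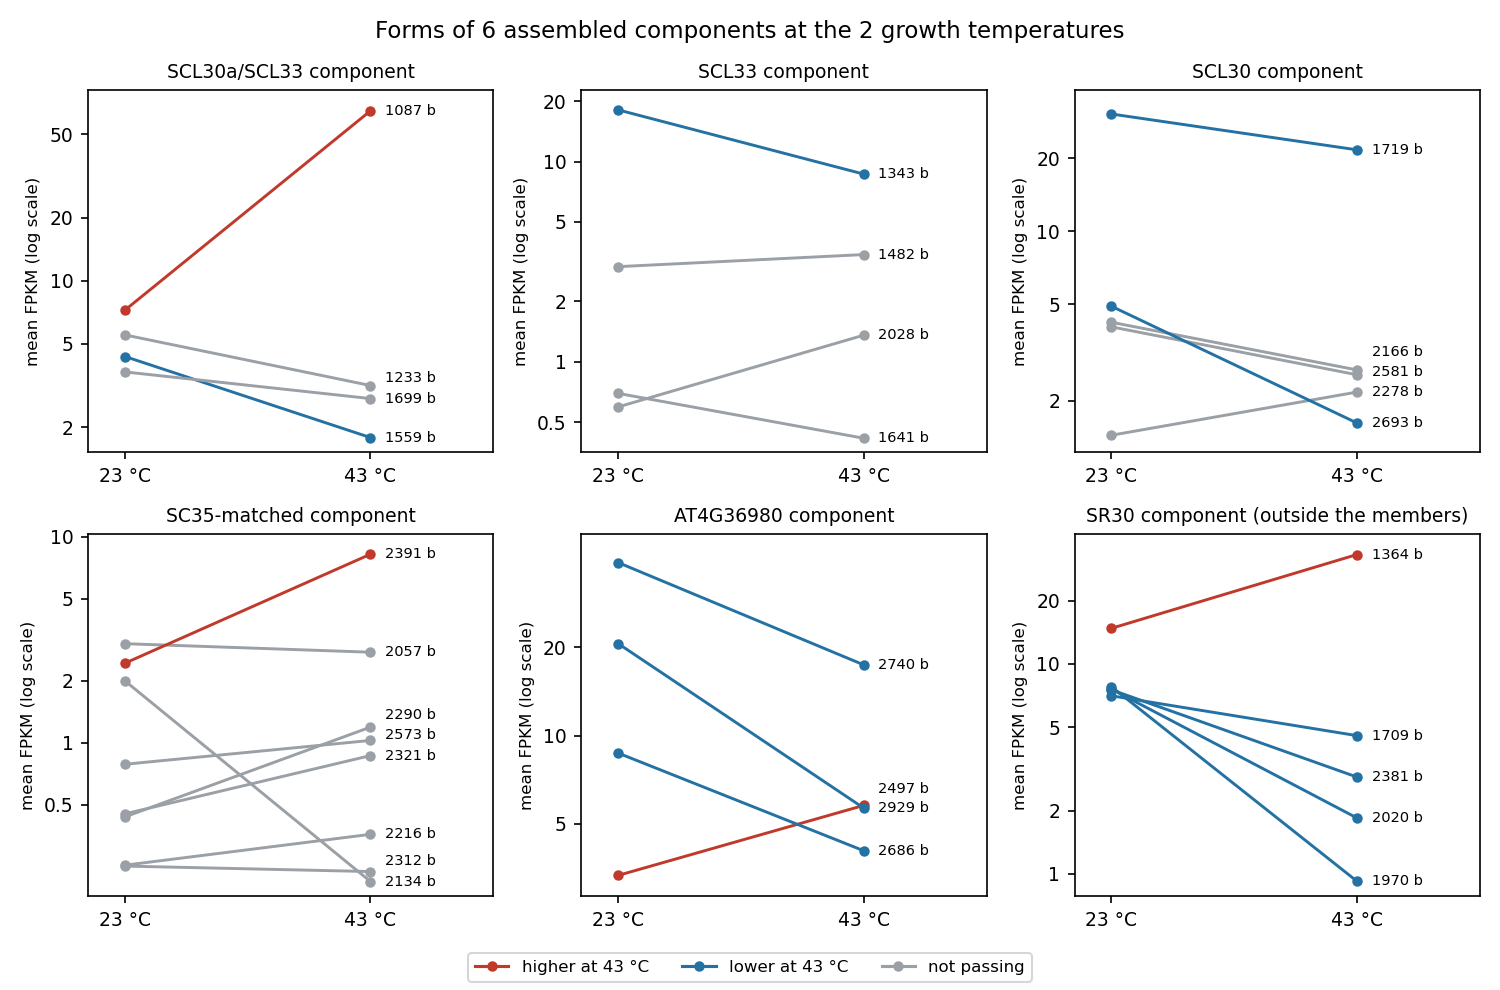
Mean FPKM at 23 °C and 43 °C (log scale) of the matched forms of 6 assembled components, each line a form labelled with its length in bases (b) and coloured by its call. In the SCL30a/SCL33 and SR30 components the shortest form is the one called higher, at 64.7 and 33.2 FPKM, and in the AT4G36980 component the shortest form rose while the other 3 fell.

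Sm core proteins moved in both directions within the same ring. All 7 matched Sm genes were members, and by the most abundant transcript 4 rose (57.1%, beside 26.9% of all matched genes), 2 fell (28.6%, beside 30.9%) and 1 did not pass. Over 11 transcripts, 6 rose (54.5%, beside 20.7% of all) and 2 fell (18.2%, beside 17.8%). Their median log2 change was 0.74, and with equal totals 7 rose and 1 fell. SmGa, the G subunit, rose from 60.4 to 154.3 FPKM, with a log2 change of 1.34, an approximate standard error of 0.10 and an adjusted p of 1.15e-41 in the authors' deposited table. A second SmGa form rose from 15.6 to 25.03 FPKM. SmGa was thus the most abundant Sm transcript at 43 °C, and at 23 °C SmD2b was.

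Further rises in the ring were found for the B and D subunits. SmD3b went from 24.3 to 47.9 FPKM (log2 0.97, adjusted p = 1.12e-15 from the authors' deposited table). SmBa rose from 22.1 to 38.2 FPKM in its main transcript and from 0.44 to 2.19 FPKM in a scarce one, and SmD1a from 25.6 to 40.8 FPKM. SmD2b, at 91.8 and 87.5 FPKM, did not pass.

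The partners of SmGa in the E, F and G part of the ring were lower. SmF fell from 52.0 to 33.5 FPKM (log2 -0.64, adjusted p = 1.14e-07 from the authors' deposited table). SmEa fell from 43.6 to 33.8 FPKM (log2 -0.38, adjusted p = 0.0020 from the authors' deposited table), a call lost with equal totals, and its transcript lies in a component that also holds transcripts matched to AT2G16940. At 23 °C the 3 transcripts differed by at most 1.39-fold, and at 43 °C SmGa was 4.60-fold above SmF.

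Of 8 LSm genes, 2 rose by the most abundant transcript (25%, beside 26.9% of all matched genes) and 1 fell (12.5%, beside 30.9%). LSM5 (SAD1 in Arabidopsis, where mutants are sensitive to abscisic acid) rose from 22.04 to 33.4 FPKM and LSM7 from 70.1 to 82.3 FPKM. LSM4 fell from 55.3 to 46.1 FPKM. The call of LSM7, with an adjusted p of 0.0499 in the authors' deposited table, was lost on median centring, and that of LSM4 with equal totals. LSM2 (16.5 and 16.7 FPKM), LSM3B (19.9 at both temperatures) and LSM6B (20.8 and 20.7 FPKM) did not pass and had nearly equal means. LSM1B, of the cytoplasmic ring, was at 10.5 and 11.8 FPKM and LSM8, of the nuclear ring, at 11.8 and 14.8 FPKM, and neither passed.

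**Figure D4:**
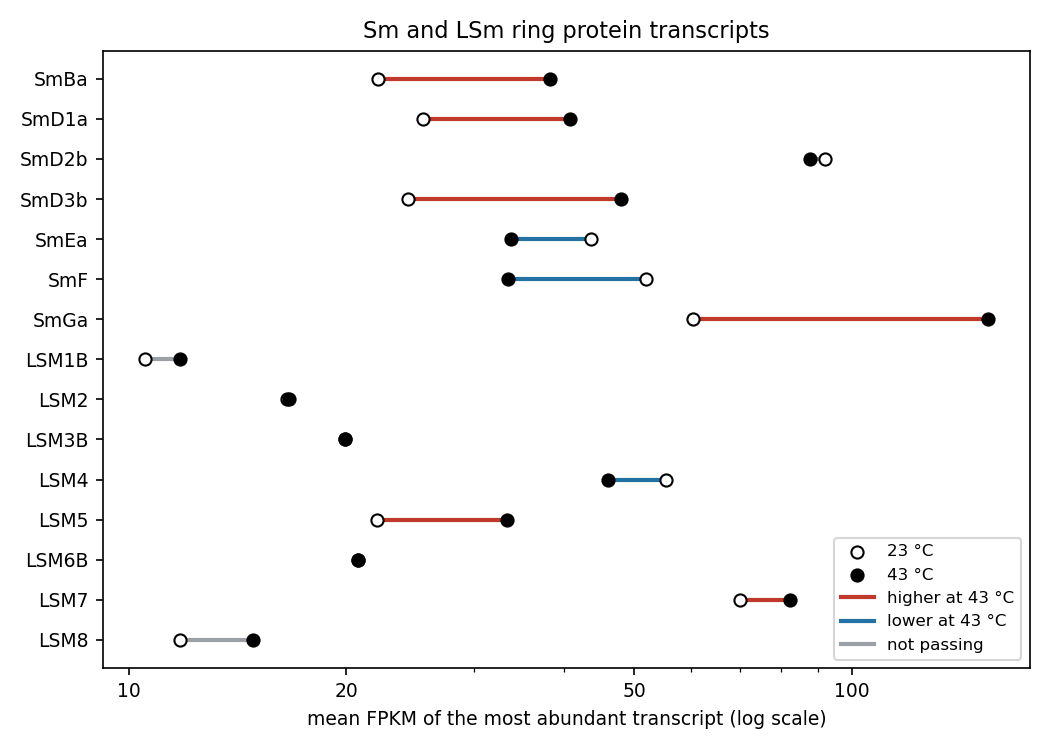
Mean FPKM at 23 °C (open circles) and 43 °C (filled circles) of the most abundant transcript of each Sm and LSm gene, on a log scale, with the joining line coloured by the call. SmGa runs from 60.4 to 154.3 FPKM while SmF and SmEa end at 33.5 and 33.8 FPKM, and the circles of LSM2, LSM3B and LSM6B coincide.

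Among U1 snRNP members, 2 of 16 transcripts rose (12.5%, beside 20.7% of all) and 1 fell (6.25%, beside 17.8%). U1-70K, which binds the U1 snRNA and contacts SR proteins, was at 36.1 and 34.98 FPKM in its main form and did not pass. Among its long, scarce forms, the form of 3624 bases rose from 1.79 to 3.64 FPKM and the form of 4816 bases fell from 2.13 to 0.86 FPKM. U1A, a U1 RNA-binding protein, was at 11.6 and 13.4 FPKM and did not pass. RBM25, a U1-associated protein with a PWI domain, rose in its shortest form, of 1619 bases, from 14.7 to 26.1 FPKM (log2 0.82, adjusted p = 1.53e-09 from the authors' deposited table). Its 7 longer forms, from 3447 to 5532 bases, did not pass, and the share of the shortest form in the gene sum was 46.9% at 23 °C and 64.1% at 43 °C.

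Of the U1 genes outside the rule, PRP39A fell from 35.5 to 22.2 FPKM and LUC7B from 22.7 to 12.1 FPKM. Both are U1 accessory proteins. U1C rose from 8.06 to 10.7 FPKM in its most abundant transcript. By the most abundant transcript, 1 of these 6 genes rose (16.7%, beside 26.9% of all matched genes) and 3 fell (50%, beside 30.9%). Over the 30 transcripts of the listed U1 genes outside the rule, 5 rose (16.7%, beside 20.7% of all) and 4 fell (13.3%, beside 17.8%).

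Among U2 snRNP proteins and the factors of the 3′ splice site, 11 of 37 member transcripts rose and 8 fell (51.4% in either direction, beside 38.5% of all), or 16 and 4 with equal totals. The U2 proteins U2A′ and U2B″ both rose, from 28.9 to 37.2 FPKM and from 14.4 to 23.6 FPKM. SF3B1, the large scaffold of the SF3b complex, rose from 18.3 to 22.8 FPKM in its longest transcript. SF3B2, another SF3b subunit, fell from 29.9 to 22.6 FPKM, a call lost with equal totals, and in a minor form from 3.09 to 0.80 FPKM. SF3A3 rose in minor transcripts (1.063 to 3.08 and 2.80 to 5.17 FPKM) and did not pass in its main one (11.4 and 9.76 FPKM). SF1, the branch point binding protein, did not pass in either form.

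U2AF reads the polypyrimidine tract and the AG of the 3′ splice site. By their most abundant transcripts, U2AF35A and U2AF65A went opposite ways, but the other small and large subunits did not repeat this. U2AF35A, a small subunit, rose from 20.1 to 35.9 FPKM (log2 0.83, adjusted p = 2.26e-11 from the authors' deposited table). U2AF65A, a large subunit, fell from 25.5 to 11.04 FPKM (log2 -1.22, adjusted p = 7.74e-18 from the authors' deposited table). The other large subunit, U2AF65B, was at 32.6 and 33.7 FPKM in its main transcript, and over its 14 transcripts 3 rose and 4 fell. One of the falls was in a form of 2101 bases, from 8.07 to 2.71 FPKM. The sum for U2AF65B was 91.3 FPKM (23 °C) and 85.8 FPKM (43 °C). Some U2AF65A and U2AF65B transcripts share a component, so reads may be split between them.

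U2AF35B, the second small subunit, lies outside the rule. Its main form, of 1468 bases, fell from 55.4 to 20.9 FPKM and a form of 1538 bases rose from 1.37 to 16.6 FPKM (log2 3.59, adjusted p = 2.92e-32 from the authors' deposited table). The gene sums were 94.5 and 92.2 FPKM. SF3A2, also outside the rule, rose from 22.1 to 53.7 FPKM.

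SF3B5B, a small SF3b subunit, had its forms called in opposite directions. Its form of 795 bases fell from 32.0 to 24.9 FPKM (adjusted p = 0.027 from the authors' deposited table; not called with equal totals) and its form of 828 bases rose from 17.0 to 29.8 FPKM (adjusted p = 9.17e-07 from the authors' deposited table). The longer form held 34.6% of the gene sum at 23 °C and 54.5% at 43 °C.

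In the tri-snRNP, 5 of 18 transcripts rose (27.8%, beside 20.7% of all) and 1 fell (5.56%, beside 17.8%). PRP8A, the protein at the heart of the catalytic core, fell in its form of 7715 bases from 27.6 to 20.3 FPKM (log2 -0.45, adjusted p = 2.41e-07 from the authors' deposited table). Its form of 7590 bases was at 17.6 and 20.9 FPKM and did not pass (adjusted p = 0.051 from the authors' deposited table). BRR2A, the helicase that unwinds U4 from U6, was at 8.06 and 10.2 FPKM in its most abundant transcript, which did not pass (adjusted p = 0.099 from the authors' deposited table). Of its other transcripts 2 rose, one of them from 1.73 to 8.13 FPKM, and the gene had a sum of 13.3 FPKM (23 °C) and 21.5 FPKM (43 °C). DIB1, a small U5 protein of the thioredoxin fold, was the most abundant member and rose from 134.5 to 165.3 FPKM, a call lost on median centring.

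STA1 is the Arabidopsis counterpart of yeast PRP6, and its mutants are sensitive to heat and cold. Its transcript of 4071 bases rose from 4.93 to 11.2 FPKM (log2 1.17, adjusted p = 4.73e-11 from the authors' deposited table). A transcript of 3653 bases was at 9.81 and 8.78 FPKM and did not pass, and the gene sum was 33.9 FPKM (23 °C) and 39.5 FPKM (43 °C). PRP3 and PRP4, both of the U4/U6 particle, did not pass. Outside the rule, PRP31 of the same particle rose from 19.9 to 39.0 FPKM.

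Some of the steepest falls among abundant members were in genes that were placed in none of the classes above. AT2G16940, a CC1-like splicing factor related to human RBM39, fell from 52.4 to 21.5 FPKM in its main transcript (log2 -1.29, adjusted p = 3.01e-34 from the authors' deposited table) and from 39.9 to 17.8 FPKM in the next. Contig6766 of the same gene rose from 10.3 to 18.4 FPKM, and a form of 1436 bases from 8.97 to 13.9 FPKM. The gene sum was 128 FPKM (23 °C) and 83.5 FPKM (43 °C). The other CC1-like gene, AT5G09880, did not pass in any of its 6 transcripts.

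AT4G36980, whose protein carries a suppressor-of-white-apricot domain, fell in 3 of its 4 forms. The main form was at 38.9 and 17.4 FPKM (log2 -1.17, adjusted p = 4.28e-24 from the authors' deposited table), the form of 2929 bases at 20.6 and 5.66 FPKM (log2 -1.87, adjusted p = 1.06e-20 from the authors' deposited table) and the form of 2686 bases at 8.72 and 4.05 FPKM. The shortest form, of 2497 bases, rose from 3.34 to 5.78 FPKM (adjusted p = 0.019 from the authors' deposited table). That form had the best match (E value 4.2e-150) and held 4.66% of the component at 23 °C and 17.6% at 43 °C. The gene sum was 71.6 FPKM (23 °C) and 32.9 FPKM (43 °C).

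AT5G61140, described as a U5 snRNP helicase, fell from 16.9 to 6.81 FPKM in its form of 6839 bases (log2 -1.32, adjusted p = 3.94e-35 from the authors' deposited table), and its form of 7164 bases was at 4.94 and 5.26 FPKM and did not pass. AT2G29210, a PWI domain protein, fell in its main transcript from 16.2 to 11.7 FPKM and rose in another from 0.13 to 2.80 FPKM. AT3G24730, of the same U5 family as DIB1, rose in a minor form from 0.05 to 1.12 FPKM. AT1G67210, a proline-rich spliceosome-associated protein, rose from 18.8 to 25.5 FPKM and AT1G31870 from 6.11 to 10.2 FPKM. CRS1, which acts on a group II intron in the chloroplast in maize, rose from 7.88 to 11.5 FPKM.

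Several members had nearly equal means. SLU7A and PRP18A, which act in the second catalytic step, were at 50.1 and 47.6 FPKM and at 18.9 and 19.3 FPKM. AT3G49601, with a Cwf21 domain, was at 20.9 and 20.8 FPKM. ISY1 of the Prp19 complex did not pass in either form, nor did SEN1, a tRNA splicing endonuclease that the word splicing brought in, at 4.36 and 4.91 FPKM. AT3G05070, with a Cwf18 domain, AT4G18372 of the Sm family, AT5G38600, which is proline-rich and spliceosome-associated, and AT1G54380 had no called transcript. AT2G44200 fell from 13.2 to 10.7 FPKM, a call lost with equal totals.

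Shifts between forms were about as frequent among splicing factors as elsewhere. Of the 36 member genes with at least 2 transcripts, 7 (19.4%) had transcripts called in both directions, beside 19.5% of such genes in the whole table. Among components with at least 2 matched forms and a summed level of at least 1 FPKM at both temperatures, 6 of 36 (16.7%) had opposite calls, beside 17.6% of 3782. The median share of a component's FPKM that moved between forms was 11.5%, beside 12.0% over all components, and the share exceeded 25% in 4 of the 36 (11.1%) and in 19.7% of all. The mean form length, weighted by FPKM, changed by a median of only -4.98 bases, beside -0.52 bases over all components. The length was shorter at 43 °C in 24 of the 36 (66.7%) and in 52.1% of all components. The difference between these shares was not tested.

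**Figure D5:**
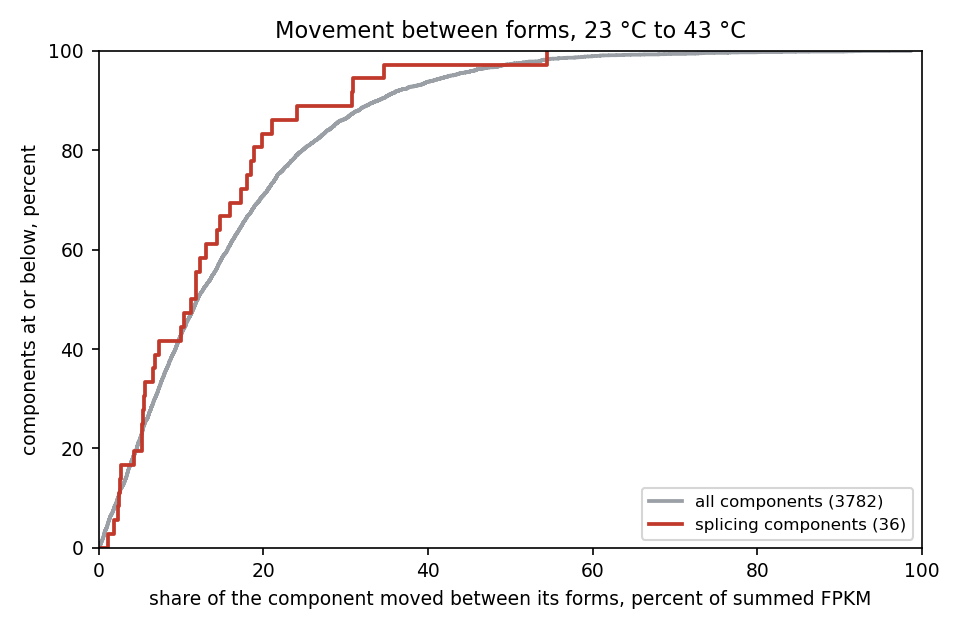
Cumulative percent of components (y axis) against the percent of summed FPKM that moved between their forms from 23 °C to 43 °C (x axis), for the 36 splicing components and all 3782 components. The medians are 11.5% and 12.0%, and the SCL30a/SCL33 component is the rightmost splicing component at 54.5%.

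The rest of the pathway was followed through listed genes that the rule does not reach. Of their 220 transcripts, 57 rose and 45 fell (46.4% in either direction, beside 38.5% of all), and with equal totals 81 rose and 32 fell. The polypyrimidine tract binding protein PTB3, a splicing repressor, fell from 50.4 to 9.37 FPKM in its main transcript (log2 -2.44, adjusted p = 4.33e-136 from the authors' deposited table), and its gene sum was 90.6 FPKM (23 °C) and 37.2 FPKM (43 °C). In their main transcripts PTB1 fell from 17.6 to 10.7 FPKM and PTB2 rose from 14.2 to 17.9 FPKM, the latter a call lost on median centring. GRP7, a glycine-rich RNA-binding protein that regulates splicing of clock and SR transcripts in Arabidopsis, rose from 590.2 to 701.6 FPKM in its most abundant transcript, a call lost on median centring, and fell in a longer form from 159.6 to 49.4 FPKM. Of its 4 transcripts 3 rose, and the gene sum was 1359 FPKM (23 °C) and 1913 FPKM (43 °C).

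Among kinases that phosphorylate SR proteins, forms of the same gene were called in opposite directions, and PRP4K was also lower in total. PRP4K fell from 3.27 to 0.46 FPKM in its most abundant form (log2 -2.84), and its gene sum was 12.9 FPKM (23 °C) and 7.36 FPKM (43 °C). SRPK4 had a form of 2255 bases that rose from 3.54 to 8.91 FPKM and a form of 2111 bases that fell from 7.70 to 3.28 FPKM. AFC2, a LAMMER kinase, was at 30.9 and 36.2 FPKM in its most abundant transcript, which did not pass. Of the 50 transcripts of the 5 matched kinase genes, 5 rose (10%, beside 20.7% of all) and 11 fell (22%, beside 17.8%). UPF1, the helicase of nonsense-mediated decay, which removes many unproductive SR splice forms in plants, fell from 25.8 to 15.1 FPKM in its main form, and 4 minor forms rose. The gene sum of UPF1 changed little, at 27.45 FPKM (23 °C) and 26.1 FPKM (43 °C).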

How the data were processed

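Leaf RNA of 8 libraries was sequenced, 4 at each growth temperature, called biological replicates by the series' design text. CASAVA 1.8.2 and Bowtie2 are named, without a role, per the submitters' processing notes. The deposited table holds, per the file headers, FPKM at each temperature, taken as the authors' means because all values were multiples of 0.0025 (within 1e-06). Per the file headers it also gives the authors' log2 changes with a p-value and an FDR, which equals a Benjamini-Hochberg adjustment over the table, and the best BLASTx match in TAIR10. Not given in the sources used here were the authors' test, assembler, counter and scaling, nor whether their p-values reflect differences between plants. The planned test on single libraries could not be made from means.

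Computed here, with Python 3.11.15 and pandas 2.3.3, were gene and component sums, shares and counts of calls at an adjusted p of 0.05. Approximate standard errors (the log2 change divided by the normal quantile of the p-value) and calls on 2 other scales were also computed. The code was run on simulated data that follow the normal model these standard errors assume, without a shift. The shifts of the 2 other scales were thus not tested on simulated data. An E value counted as weaker where it was over 10 orders of magnitude from the best of its component. Members and lists (148 splicing genes, 112 matched) were chosen with earlier results of these data known. The naming rule selected all SR genes, from other lists up to 2 risen, 2 fallen and 2 not passing by the most abundant transcript, the 10 highest and 10 lowest called changes of members at 1 FPKM or more, and genes with risen and fallen transcripts that each held 25% of the gene sum. Some genes selected from the other lists, among them all heat markers, are not described here. Other members were named to account for all of them, after their values were seen.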

Additional observations from a re-analysis of the deposited data

How the results depend on the processing

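Under an adjusted p of 0.01, filters on mean FPKM, pseudocounts of 1 and 0.1, other scales, stricter E values and other choices of members, the counts moved by over 1.5 times in these cases. Genes with transcripts called in both directions numbered 7 as reported, 4 at a threshold of 0.01, 3 with a mean of at least 5 FPKM and 4 among listed genes. At 0.01, 57 of the 196 members were called in either direction, and 29.9% of all transcripts were. With at least 5 FPKM, 25 members were higher in place of 38, and 8 SR transcripts were called in place of 15. Shares of all genes called in both directions at 0.01, and shares of all transcripts or genes with at least 5 FPKM, were not counted. Whether these drops are particular to the members is therefore not known. By the most abundant transcript per gene, 32 were called in place of 75, 16 higher and 16 lower, and 5 for SR genes, since fewer transcripts enter. With equal totals, which add to every change by construction, the median member change was 0.24 in place of -0.02, and members higher were 67.1% of those called in place of 50.7%, beside 68.4% and 53.7% of all transcripts. SKIP of the Prp19 complex, at 25.1 and 21.3 FPKM, turned from a fall to 0.0083 on the log2 scale with equal totals. Of the 94 transcripts selected by the naming rule, 84 had the same direction and side of the threshold at 0.01, 73 with equal totals (12 others newly passed and 8 no longer did), 85 on median centring and 94 with either pseudocount.

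No paired analysis was possible because the columns hold means of each group. Leaving out each replicate could not be run for the same reason, and depth, which limits the low transcripts, is unknown.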

Other observations

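Other steps of mRNA handling also differed between the temperatures. Of the exon junction complex, EIF4A3 was at 68.6 and 89.8 FPKM (23 and 43 °C) and Y14 at 23.3 and 30.3 FPKM, and both were called higher in the authors' deposited table, while MAGO, at 22.2 and 23.8 FPKM, did not pass. In the Prp19 complex, which activates the spliceosome, CRNKL1 rose from 30.3 to 42.4 FPKM and SYF2 fell from 19.9 to 14.99 FPKM, a call lost with equal totals. PRP19A, the ubiquitin ligase of that complex, was at 19.2 and 21.2 FPKM in its most abundant transcript, which did not pass, and a transcript of 4238 bases fell from 10.95 to 1.02 FPKM. Among genes for intron splicing in organelles, 5 of 10 rose and none fell by the most abundant transcript, beside 26.9% of all matched genes higher and 30.9% lower. Risen genes included MCSF1, at 6.08 and 11.7 FPKM, and the mitochondrial maturase NMAT2, at 1.95 and 3.80 FPKM. Over their 27 transcripts, 6 rose (22.2%, beside 20.7% of all) and 2 fell (7.41%, beside 17.8%), and 10 were below 1 FPKM at both temperatures.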
